A study of Mus musculus with 4 samples.

Results

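Egr1, Egr2, Egr3, Ier2, Ier3, Ier5, Atf3, Btg2, Nr4a1 and Dusp1 are immediate early genes, and their expression was examined in mouse neural progenitor cells (NPCs) on a soft and on a stiff matrix, with and without knockdown of Srf. The 10 genes were chosen by symbol as early-response genes that encode no AP-1 subunit, and all were found among the 21862 gene symbols that each library listed once. RNA from N31 cells was sequenced after culture in NPC medium without EGF and bFGF on matrices of 0.5 kPa (soft) or 12 kPa (stiff) over dishes coated with type I collagen. N31 is an NPC line differentiated in vitro from iPSCs that carry Dox-inducible reprogramming factors, so all groups share these transgenes. The shSrf cells are N31 cells in which a short hairpin RNA against Srf (shSrf#1) was introduced by retrovirus, and infected cells were selected by puromycin. The control cells are N31 cells for which neither the labels nor the methods name a control vector, so effects of the hairpin, the vector and the selection cannot be told apart. Each of the 4 conditions had 1 library, so the differences below have no replicates behind them and were not given p-values.

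Immediate early genes are transcribed within minutes of a growth factor, stress or mechanical signal without new protein synthesis, and their mRNAs are short-lived. Many of their promoters hold a serum response element, at which Srf binds the CArG box and recruits ternary complex factors (Elk1, Elk3 and Elk4) that ERK phosphorylates. Srf also works with the actin-sensing cofactors Mkl1 and Mkl2, mainly at cytoskeletal genes. In the nervous system Egr genes are widely used as readouts of recent signalling.

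Expression is given as FPKM, reads scaled to transcript length and library size, so that levels can be compared between genes. The depth of the libraries was estimated from the value of 1 read in low genes as 24100000 reads in the shallowest library (control, 12 kPa) and 62300000 reads in the deepest (shSrf, 12 kPa). From these depths a counting standard error (SE) was derived for each log2 ratio, which covers the sampling of reads only. The targeted gene, Srf, had an FPKM of 34.4 and 35.6 in control cells and 16.2 and 17.4 in shSrf cells at 0.5 and 12 kPa. The labelled cell type was only partly borne out by its markers, as 4 of 10 NPC markers (Nes, Sox2, Pax6 and Vim) were above an FPKM of 2 in each control library and Sox1, Olig2 and Hes5 were listed at 0 in all 4 libraries. Of 11 mesenchymal markers, 10 were above 2 in each control library. In each shSrf library 5 of the 10 NPC markers were above 2. Of the mesenchymal markers, 11 were above 2 in shSrf cells at 0.5 kPa and 10 at 12 kPa. Of all 21862 genes, 10855 and 10871 were above 2 in control cells at 0.5 and 12 kPa, and 10933 and 11001 in shSrf cells. The bulk libraries cannot tell apart fewer cells that express a gene from less RNA per cell.

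Egr1 was the gene of the family with the highest level and with the widest range. Its FPKM was 87.0 on the soft and 36.2 on the stiff matrix in control cells, and 196 and 137 in shSrf cells. Both shSrf libraries were thus above both control libraries, and within each population the soft matrix had the higher level. The lowest and the highest library differed by 5.42-fold. Egr1 encodes a zinc finger transcription factor that binds GC-rich sites in the promoters of growth and differentiation genes, and its gene lies on chromosome 18 of GRCm38 (mm10) from 34861207 to 34864956. The level on the stiff matrix was lower by 2.40-fold in control cells (log2 ratio -1.27, counting SE 0.03), the third lowest ratio of the 10489 genes that exceeded an FPKM of 2 in every library, and by 1.43-fold in shSrf cells (-0.51, counting SE 0.01). shSrf cells exceeded control cells by 2.25-fold at 0.5 kPa and by 3.80-fold at 12 kPa.

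Egr3 had a pattern of its own. Its FPKM was 9.61 and 5.42 in control cells and 6.89 and 4.77 in shSrf cells at 0.5 and 12 kPa. The levels of both soft libraries were above those of both stiff libraries, and on each matrix the level of control cells was above that of shSrf cells. The log2 ratio of the stiff to the soft matrix was -0.83 in control (counting SE 0.14) and -0.53 in shSrf cells (counting SE 0.11). The ratio of shSrf to control cells was -0.48 at 0.5 kPa and -0.19 at 12 kPa, and the latter was within 1.96 counting SEs of 0. The annotated Egr3 transcript used is rich in GC (62.1%), and relative to genes of similar GC content these ratios were -0.70 and -0.54. On the same scale the ratios of the stiff to the soft matrix were -0.79 in control and -0.62 in shSrf cells. Egr3 encodes a zinc finger factor related to Egr1 and lies on chromosome 14 from 70077317 to 70082613.

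Egr2 had a lower level than Egr1 and Egr3, and it was the only one of these 3 genes with a higher level on the stiff than on the soft matrix in shSrf cells. It encodes the zinc finger factor Krox20, which is known for hindbrain segmentation and for myelination by Schwann cells, and it lies on chromosome 10 from 67534469 to 67542188. Its FPKM was 4.92 and 3.92 in control cells and 1.76 and 3.14 in shSrf cells at 0.5 and 12 kPa. Both control libraries were above both shSrf libraries, the reverse of the order of Egr1, and the lowest level was that of shSrf cells on the soft matrix. With this value Egr2 was the only one of the 10 genes that did not exceed an FPKM of 2 in every library. That is the minimum used in the study, so Egr2 is left out of the counts of the 9 genes above it. These levels correspond to an estimated 219 to 541 reads, so the low value is not one of few reads. The log2 ratio of the stiff to the soft matrix was -0.33 in control (counting SE 0.11) and 0.84 in shSrf cells (counting SE 0.12). The ratio of shSrf to control cells was -1.49 at 0.5 kPa and -0.32 at 12 kPa.

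Because the cells differ in their level of Srf, the 250 bases before RefSeq transcription start sites were searched for the CArG box in 7 of the 10 genes, on GRCm38.p6. The search read 11 such windows for these 7 genes (Egr2, Ier3, Ier5, Atf3, Btg2, Nr4a1 and Dusp1). No window of Egr1, Egr3 or Ier2 was read, so the search does not tell whether these genes hold a CArG box. Egr2 was the only one of the 7 with an unaltered CArG box, which 1.47% of all 32851 windows hold. It has 2 of them, each 72 bases before a start site, on the plus strand at chr10:67537484-67537513 and chr10:67537787-67537816, inside the annotated span of the gene and upstream of its internal start sites. They are shown with 10 bases on each side as the only unaltered CArG boxes found, with the box in capitals.
Egr2, before the start at 67537566: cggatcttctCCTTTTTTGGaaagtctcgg
Egr2, before the start at 67537869: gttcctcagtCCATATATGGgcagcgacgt
A CArG box with 1 mismatch was found in 5 of the 7 genes (Egr2, Ier3, Atf3, Btg2 and Nr4a1) and is held by 17.5% of all windows. The ETS core GGAA, read on both strands, was found in the same 5 genes and is held by 93.4% of windows, and the Egr site core GCGTGGG was found in none of the 7 and in 4.30% of all windows. These matches are letters in a window and not measured binding sites.

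Ier2, a small nuclear protein of the early response, followed the order of Egr1. Its FPKM was 58.0 and 33.7 in control cells and 99.0 and 85.5 in shSrf cells at 0.5 and 12 kPa. Both shSrf libraries were above both control libraries. The log2 ratio of the stiff to the soft matrix was -0.78 in control (counting SE 0.05) and -0.21 in shSrf cells (counting SE 0.03), and the ratio of shSrf to control cells was 0.77 at 0.5 kPa and 1.34 at 12 kPa. Transcripts of Ier2 have a GC content of 60.9%, and the ratios of shSrf to control cells were higher in genes of higher GC content, with a median at 12 kPa of -0.28 in the lowest and 0.35 in the highest of 10 GC bins of all genes. Relative to genes of similar GC content the ratios of Ier2 were 0.55 and 0.99, and that of Egr1 (53.5% GC) was 1.83 at 12 kPa. Ier2 lies on chromosome 8 from 84661331 to 84662852.

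Ier3, which is known to modulate apoptosis and ERK signalling, was the most abundant of the 10 mRNAs in both control libraries. Its FPKM was 95.1 and 61.5 in control cells and 72.0 and 65.1 in shSrf cells. The shSrf libraries lay between the control libraries. The log2 ratio of the stiff to the soft matrix was -0.63 in control cells (counting SE 0.05) and -0.14 in shSrf cells (counting SE 0.04), where it was just past 1.1-fold at 1.11-fold lower. The log2 ratio of shSrf to control cells was -0.40 at 0.5 kPa and 0.08 at 12 kPa. Atf3, a bZIP factor induced by many stresses, had the same order of libraries at a much lower level, with an FPKM of 2.90 and 2.09 in control cells and 2.48 and 2.16 in shSrf cells. Its log2 ratio of the stiff to the soft matrix was -0.47 in control (counting SE 0.19) and -0.20 in shSrf cells (counting SE 0.14), and at an estimated 90.0 to 240 reads only the former exceeded 1.96 counting SEs. Ier3 lies on chromosome 17 from 35821713 to 35822911 and Atf3 on chromosome 1 from 191170296 to 191183333.

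**Figure D1:**
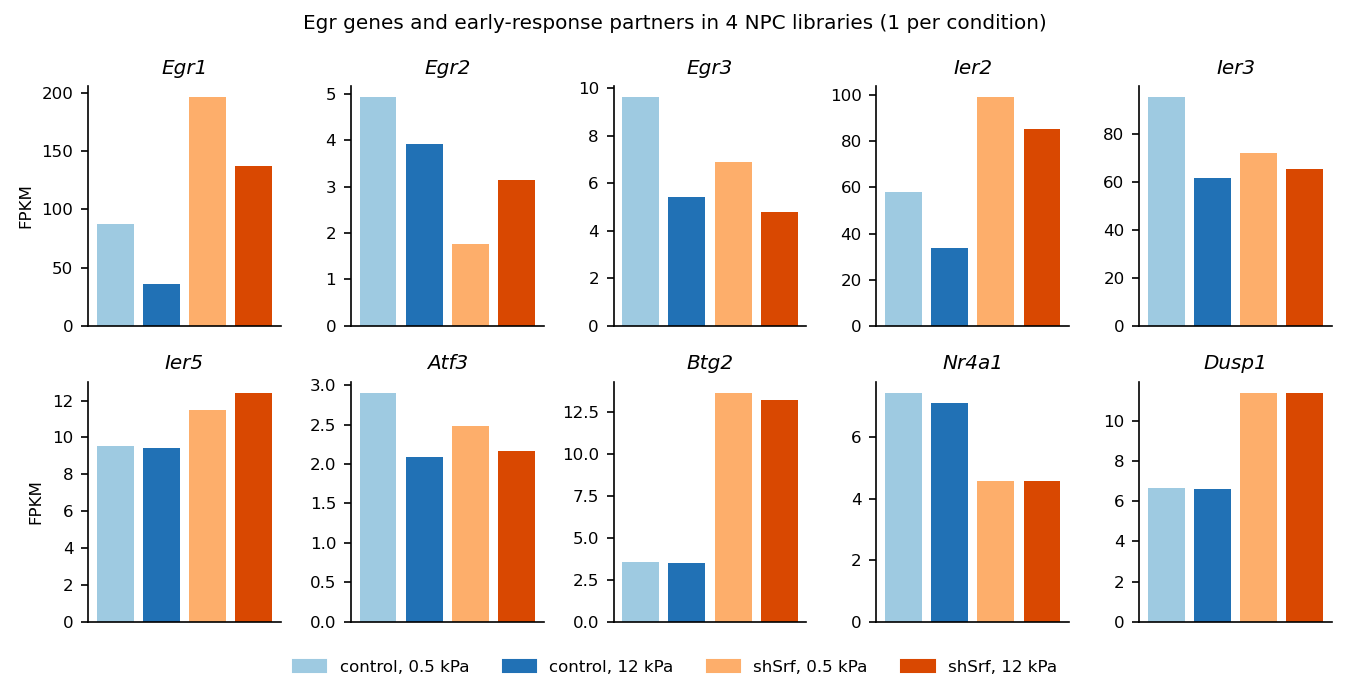
FPKM of each of the 10 genes (vertical axes, starting at 0 and scaled for each gene) in the 4 libraries, 1 bar for each library and no error bar because each condition had 1 library. Blue bars are control and orange bars are shSrf cells, light at 0.5 kPa and dark at 12 kPa. Egr1 and Ier2 are highest in shSrf cells and lower on the stiff matrix in each population, whereas Btg2, Nr4a1 and Dusp1 differ between the populations and hardly between the matrices.

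Btg2, Dusp1 and Nr4a1 differed between the cell populations and by less than 1.1-fold between the matrices. Btg2, an antiproliferative gene that p53 induces, had an FPKM of 3.57 and 3.49 in control cells and 13.6 and 13.2 in shSrf cells at 0.5 and 12 kPa. It was higher in shSrf cells by 3.83-fold at 0.5 kPa and 3.77-fold at 12 kPa (log2 ratios 1.94 and 1.91, counting SE 0.10 each). These are ranks 40 and 37 from the top among the 10489 genes. Dusp1, a phosphatase that inactivates MAP kinases, had an FPKM of 6.65 and 6.63 in control cells and 11.4 and 11.4 in shSrf cells, a log2 ratio of 0.78 at each stiffness (counting SE 0.09). Nr4a1, an orphan nuclear receptor, went the other way, with an FPKM of 7.43 and 7.11 in control and 4.59 and 4.59 in shSrf cells, and log2 ratios of -0.70 and -0.63 (counting SE 0.09). For each of these genes the log2 ratio of 12 to 0.5 kPa lay between -0.06 and -0.00014, within 1.96 counting SEs of 0 in both populations. The counting SE of this ratio was 0.10 to 0.13 in control cells, so small effects of the matrix were not detectable at this depth. Btg2 lies on chromosome 1 from 134074865 to 134079155, Dusp1 on chromosome 17 from 26505591 to 26508472 and Nr4a1 on chromosome 15 from 101253902 to 101274795.

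The sequences before the starts of these 3 genes are shown because they differed mainly with the knockdown and hold a half-site of the cyclic AMP response element. The half-site is TGACG, or its reverse complement CGTCA. Ier5 also differed by less than 1.1-fold between the matrices and by more between the populations, but it holds no half-site. The half-site, searched on both strands, is in capitals, and 17.8% of all windows hold it. Btg2 and Dusp1, which were higher in shSrf cells, also hold the full element TGACGTCA, in which half-sites of both strands overlap and which 1.55% of windows hold. Nr4a1, which was lower, holds 4 half-sites and no full element. The full element was not among the motifs planned for the search, and its relation to the levels was not tested. The windows are the 250 bases upstream of the start, with the RefSeq sequence of GRCm38.p6 on the strand of the gene, at chr1:134079156-134079405 (minus strand), chr17:26508473-26508722 (minus strand) and chr15:101266596-101266845 (plus strand). The Nr4a1 window precedes an internal start and lies inside the annotated span of the gene.
Btg2: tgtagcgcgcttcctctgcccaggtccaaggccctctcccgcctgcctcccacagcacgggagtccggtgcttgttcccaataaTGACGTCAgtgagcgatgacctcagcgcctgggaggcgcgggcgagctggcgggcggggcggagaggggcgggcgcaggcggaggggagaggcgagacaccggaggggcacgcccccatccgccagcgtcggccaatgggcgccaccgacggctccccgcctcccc
Dusp1: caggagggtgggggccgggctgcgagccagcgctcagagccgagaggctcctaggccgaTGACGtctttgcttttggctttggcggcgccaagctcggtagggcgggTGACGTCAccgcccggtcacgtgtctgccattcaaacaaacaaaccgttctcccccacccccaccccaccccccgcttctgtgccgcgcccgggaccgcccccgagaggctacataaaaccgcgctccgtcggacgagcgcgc
Nr4a1: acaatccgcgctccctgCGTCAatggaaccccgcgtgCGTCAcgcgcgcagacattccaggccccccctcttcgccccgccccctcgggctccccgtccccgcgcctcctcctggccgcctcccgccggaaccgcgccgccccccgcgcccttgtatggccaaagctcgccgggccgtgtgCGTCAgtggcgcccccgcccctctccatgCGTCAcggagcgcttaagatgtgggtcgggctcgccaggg
Egr2 and Atf3 hold the half-site too, and Ier3 and Ier5 do not, while Egr1, Egr3 and Ier2 were not searched.

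Ier5, a regulator of the heat shock response, had the narrowest range of the 10 genes. Its FPKM was 9.51 and 9.44 in control cells and 11.5 and 12.4 in shSrf cells, and the lowest and highest libraries differed by 1.31-fold. The ratio of 12 to 0.5 kPa was within 1.1-fold in both populations, at -0.01 and 0.10 on the log2 scale. It was higher in shSrf cells by 1.21-fold at 0.5 kPa and 1.31-fold at 12 kPa. Ier5 lies on chromosome 1 from 155096367 to 155099636.

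As a group, the 9 genes above the minimum were lower on the stiff matrix or within 1.1-fold of the soft matrix. In control cells 5 of the 9 (Egr1, Egr3, Ier2, Ier3 and Atf3) were lower by more than 1.1-fold, as were 16.9% of all genes, and none was higher, as were 17.9% of all genes. Their median log2 ratio was -0.47, against 0.003 for all genes. Egr1 alone was lower by more than 2-fold, which 0.105% of all genes were. In shSrf cells the same 5 genes were lower, as were 13.0% of all genes, and none was higher, as were 17.6%. The median of the 9 was -0.14, against 0.006 for all genes.

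The ratios in shSrf cells were smaller in size for each of the 5 genes. These genes were picked by their ratio in control cells, so a smaller ratio in the other population can follow from that choice. The difference between the log2 ratios, shSrf minus control, was 0.75 for Egr1 (counting SE 0.04), 0.57 for Ier2 (0.06) and 0.48 for Ier3 (0.06). For Egr3 it was 0.29 (0.17) and for Atf3 0.27 (0.24), within 1.96 counting SEs. The 5th and 95th percentiles of this difference over all genes were -0.35 and 0.42, a range that holds the values of Egr3 and Atf3. The control and shSrf ratios share no library, and with 1 library for each condition this difference was not tested.

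**Figure D2:**
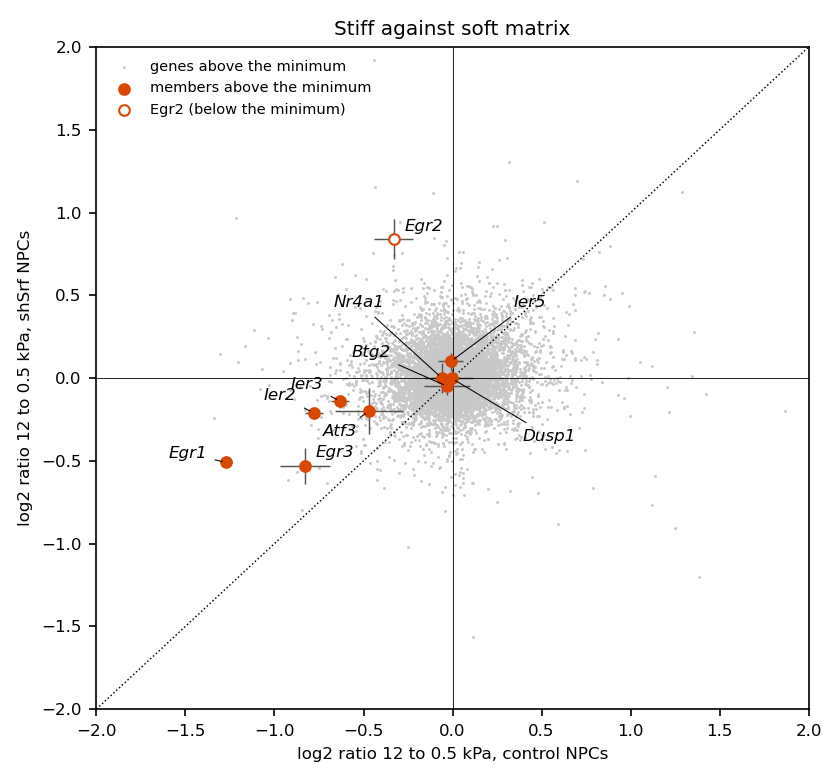
Log2 ratio of FPKM at 12 to 0.5 kPa in control cells (horizontal axis) and in shSrf cells (vertical axis). Grey points are the 10489 genes above the minimum, orange points the members, the open point Egr2, and bars are 1 counting SE. The 5 genes that were lower on the stiff matrix in control cells lie left of 0 and above the dotted line of equal ratios, whereas Btg2, Nr4a1, Dusp1 and Ier5 lie near the origin and Egr2 lies above 0 on the vertical axis.

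In the comparison of shSrf with control cells the group divided. These ratios use the same 4 libraries as the stiffness ratios and are not independent of them. At 0.5 kPa 5 of the 9 genes (Egr1, Ier2, Ier5, Btg2 and Dusp1) were higher by more than 1.1-fold, as were 37.4% of all genes, and 4 (Egr3, Ier3, Atf3 and Nr4a1) were lower, as were 35.7%. At 12 kPa the same 5 were higher, as were 37.6% of all genes, 2 (Egr3 and Nr4a1) were lower, as were 35.9%, and Ier3 and Atf3 were within 1.1-fold. These shares are near those of all genes, since so many genes passed 1.1-fold. Past 2-fold, Egr1 and Btg2 were higher at 0.5 kPa, as were 2.45% of all genes, and Egr1, Ier2 and Btg2 were higher at 12 kPa, as were 2.74%. Egr2 was lower by 2.80-fold at 0.5 kPa, and it was not among the 9 because that level was under the minimum, so a count of the 9 past 2-fold lower is not informative at 0.5 kPa. Of all genes above the minimum, 2.86% were lower by more than 2-fold at 0.5 kPa and 2.22% at 12 kPa. The median log2 ratio of the 9 genes was 0.27 at 0.5 kPa and 0.39 at 12 kPa, against 0.011 and 0.010 for all genes. The median at 0.5 kPa was 0.02 when Egr2 was included with a minimum FPKM of 1.

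**Figure D3:**
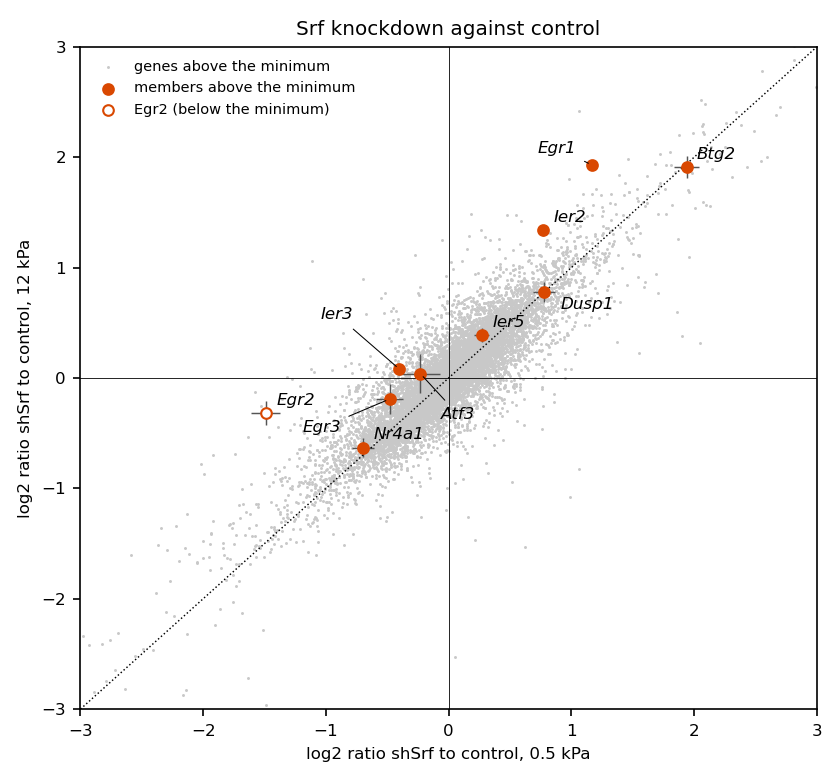
Log2 ratio of FPKM in shSrf to control cells at 0.5 kPa (horizontal axis) and at 12 kPa (vertical axis), with points and bars (1 counting SE) as for the stiffness ratios. The axes end at 3 in each direction and leave out 9 genes beyond them. Btg2, Dusp1 and Nr4a1 lie on the dotted line of equal ratios, and Egr1, Ier2, Ier3 and Egr2 lie above it.

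Other genes of the early response were taken from a list of 34, of which 30 were above the minimum. On the stiff matrix in control cells 12 of the 30 were lower and 6 higher by more than 1.1-fold, with a median log2 ratio of -0.09, beside the 16.9% and 17.9% of all genes given above. In shSrf cells 7 were lower and 6 higher, with a median of 0.02, beside 13.0% and 17.6% of all genes. Nr4a2, a relative of Nr4a1, had an FPKM of 4.70 and 8.03 in control cells and 3.32 and 3.37 in shSrf cells at 0.5 and 12 kPa. It was thus higher on the stiff matrix in control cells (log2 ratio 0.77), where Nr4a1 was not. Socs3, the feedback inhibitor of cytokine signalling, had an FPKM of 81.9 and 56.0 in control cells and 32.0 and 49.2 in shSrf cells. Its libraries had the order of those of Egr2, with the lowest level in shSrf cells on the soft matrix.

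By more than 1.1-fold, 16 of these 30 genes were higher in shSrf cells at 0.5 kPa and 19 at 12 kPa, beside 37.4% and 37.6% of all genes. The 9 and 10 that were lower stand beside 35.7% and 35.9% of all genes. The log2 ratio to control was 0.90 and 1.09 for Zfp36 and 1.07 and 1.43 for Zfp36l1, which encode proteins that destabilise AU-rich mRNAs. It was 1.52 and 1.37 for Gadd45b, a stress-response gene, and 1.17 and 1.13 for Id1, an inhibitor of bHLH factors. Ptgs2, which encodes the prostaglandin synthase Cox-2, was lower, with an FPKM of 23.9 and 24.4 in control and 4.06 and 4.25 in shSrf cells (log2 ratios -2.56 and -2.52).

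Of the AP-1 subunits, which are induced by the same signals, the 5 above the minimum (Fos, Fosl1, Fosl2, Jun and Jund) were lower by more than 1.1-fold on the stiff matrix in control cells (median log2 ratio -0.61), beside 16.9% of all genes. In shSrf cells 2 of the 5 were lower, beside 13.0% of all genes, and Jund was higher (log2 ratio 0.20), beside 17.6% of all genes (median of the 5 -0.11). Fosb, which was below the minimum, went the other way in control cells, with an FPKM of 1.23 and 2.61 in control and 1.32 and 1.34 in shSrf cells. Fos had an FPKM of 7.85 and 4.67 in control and 24.1 and 16.6 in shSrf cells. Junb was listed in 2 rows in each library and was left out of these counts.

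Fos was also the gene whose levels were most like those of Egr1. The genes above the minimum were ranked by the Euclidean distance of their log2 FPKM, centred on the mean of the 4 libraries, from that of Egr1. The nearest were Fos (distance 0.41), Krt8 (0.54), Gm20431 (0.54), Nrn1 (0.60) and Ier2 (0.64). Krt8 encodes a keratin of simple epithelia. Nrn1, an activity-regulated neuronal gene that encodes neuritin, had 10.7 and 7.36 in control and 34.4 and 28.2 in shSrf cells. Of the other members, Btg2 ranked 108 of 10488 and Nr4a1 9726, so the members do not share 1 pattern over these 4 libraries.

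**Figure D4:**
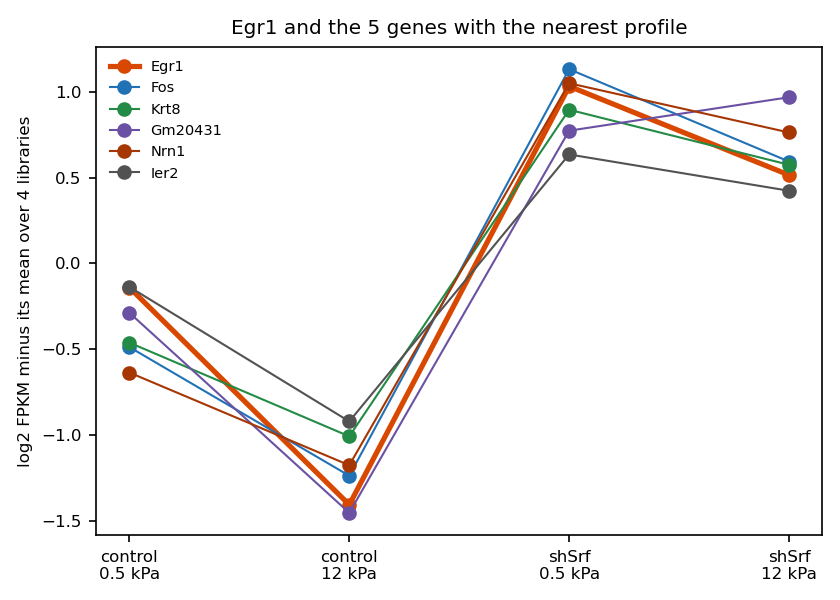
Log2 FPKM of Egr1 and of the 5 genes with the nearest profile in each of the 4 libraries (horizontal axis), with the mean over the 4 libraries of each gene subtracted (vertical axis), 1 point for each library. Each gene is lowest in control cells on the 12 kPa matrix, and each except Gm20431 is highest in shSrf cells on the 0.5 kPa matrix.

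Of 13 listed MAPK phosphatases and inhibitors of ERK signalling above the minimum, 8 were lower on the stiff matrix by more than 1.1-fold and none was higher in control cells (median log2 ratio -0.25), beside 16.9% and 17.9% of all genes. In shSrf cells 8 were lower and 1 was higher (median -0.17), beside 13.0% and 17.6% of all genes. Spry4, an inhibitor of receptor tyrosine kinase signalling, had an FPKM of 34.9 and 26.1 in control and 22.1 and 15.1 in shSrf cells. Spry1 had 65.7 and 70.2 in control and 51.9 and 43.9 in shSrf cells. In shSrf against control cells 8 of the 13 were lower and 1 higher at 0.5 kPa (median -0.31), beside 35.7% and 37.4% of all genes. At 12 kPa 6 were lower and 3 higher (median 0.04), beside 35.9% and 37.6%. These log2 ratios lay between -0.75 and 0.27 at 0.5 kPa and between -0.79 and 0.25 at 12 kPa. None of the 13 was past 2-fold in any of the 4 comparisons.

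The corepressors Nab1 and Nab2, which bind Egr proteins, differed little between libraries. Nab2 is itself a known Egr target. Nab2 had an FPKM of 63.2 and 56.1 in control and 74.6 and 69.9 in shSrf cells, and Nab1 40.1 and 38.8 in control and 35.7 and 36.3 in shSrf cells. Of the relatives of Btg2, Btg1 had a log2 ratio of shSrf to control cells of 0.61 and 0.53 and Tob1 of 0.59 and 0.47. Of the Srf partners, none was past 2-fold in any comparison apart from Srf itself, and the log2 ratios of Elk1, Elk3 and Elk4 between shSrf and control cells lay between -0.18 and 0.38.

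Stress genes were examined because handling and stress induce many of the 10 genes. Of 9 genes of the integrated stress response, 7 were lower on the stiff matrix by more than 1.1-fold in control cells (median log2 ratio -0.21), beside 16.9% of all genes. At each stiffness 6 were higher in shSrf cells (medians 0.39 and 0.43), beside 37.4% of all genes at 0.5 kPa and 37.6% at 12 kPa. Among them Ddit4 had an FPKM of 49.2 and 38.8 in control and 78.8 and 72.9 in shSrf cells, and Atf5 had a log2 ratio of shSrf to control cells of 0.53 and 0.98. Of 8 p53 targets, 2 were lower and 1 was higher on the stiff matrix in control cells (median 0.0064), beside 16.9% and 17.9% of all genes. Cdkn1a had 13.1 and 8.44 in control and 17.7 and 16.4 in shSrf cells, and Zmat3 had log2 ratios of shSrf to control cells of -0.63 and -0.50. Of 6 heat shock genes above the minimum, 1 was lower and none higher on the stiff matrix in control cells (median -0.01), beside 16.9% and 17.9% of all genes. The log2 ratio of shSrf to control cells was 0.49 and 0.70 for Hspa1b and -0.85 and -0.63 for Hsph1. Summed over the 7 heat shock genes listed, the FPKM was 1025 and 1070 in control and 1332 and 1299 in shSrf cells. The part of stress or handling in the levels of the early genes was not tested.

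Markers of NPCs and of other cell types also differed between shSrf and control cells, in both directions within a list. Of the 4 NPC markers above the minimum, 3 were higher and 1 (Nes) lower in shSrf cells at each stiffness. The medians of these log2 ratios were 0.90 at 0.5 kPa, beside 37.4% and 35.7% of all genes, and 0.83 at 12 kPa, beside 37.6% and 35.9%. At 0.5 and 12 kPa the ratios were 2.15 and 1.89 for Sox2, 1.31 and 0.97 for Pax6 and -1.65 and -1.22 for Nes. Summed FPKM of 9 neuron markers was between 66.6 and 68.2 in control and between 127 and 129 in shSrf cells, and Rbfox3 was at 0 in all libraries. That sum rested on Map2 and Stmn2. Of the 5 neuron markers above the minimum, 2 were higher and 2 (Snap25 and Nefl) lower in shSrf cells at 0.5 kPa (median log2 ratio 0.02), beside 37.4% and 35.7% of all genes. At 12 kPa 3 were higher and 1 (Snap25) lower (median 0.51), beside 37.6% and 35.9%. For 7 astrocyte markers the sum, mostly Gja1, was between 378 and 431 in control and between 204 and 222 in shSrf cells. Slc1a3 (log2 ratios to control -1.47 and -1.48 at 0.5 and 12 kPa) and Gja1 (-1.09 and -0.74) were lower. Aldh1l1, the only other astrocyte marker above the minimum, was higher (0.25 and 0.34). For 11 mesenchymal markers the sum was between 3142 and 3290 in control and between 2537 and 2639 in shSrf cells. Of the 9 above the minimum, 4 were higher and 4 lower at 0.5 kPa (median 0.13), beside 37.4% and 35.7% of all genes. At 12 kPa 5 were higher and 4 lower (median 0.27), beside 37.6% and 35.9%. Those lower included the Srf targets Acta2 and Tagln and also Postn (-2.64 and -2.82), and those higher included Dcn (1.54 and 1.60). Of 6 microglia and macrophage markers only Cd68 was above an FPKM of 2, and C1qa was at 0. The part of these differences in those of the early genes was not tested.

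**Figure D5:**
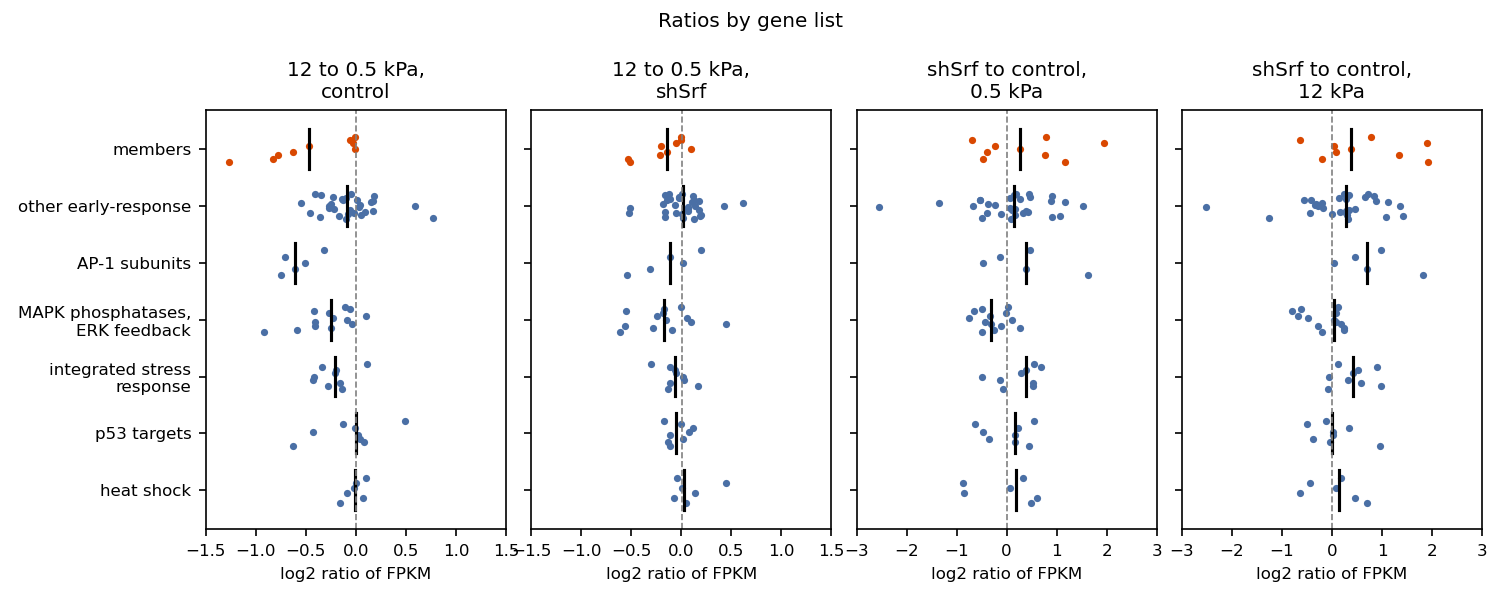
Log2 ratio of FPKM for each gene above the minimum in 7 gene lists (rows), in the comparisons of 12 to 0.5 kPa in control and in shSrf cells and of shSrf to control cells at 0.5 and 12 kPa (panels from left to right). Black ticks are list medians and the dashed line is the median of all genes. The members and the AP-1 subunits lie to the left of the dashed line in control cells, with medians of -0.47 and -0.61, and reach further right of it in the comparisons with the knockdown.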

How the data were processed

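Stranded mRNA libraries were single-end sequenced. Per the labels and the study's methods, the authors trimmed reads with cutadapt 1.9.1, mapped them to mm10 with TopHat2 2.1.0 and Bowtie2 2.2.8 and the GENCODE M14 annotation, kept reads with high mapping quality and computed the deposited FPKM values with Cufflinks 2.2.1. The strand setting of the counting was not given in the sources used here. FPKM values were used without rescaling. The 63 symbols listed more than once were left out, and log2 ratios were taken without a pseudocount. The study's minimum (FPKM above 2 in all 4 libraries) and its threshold of 1.1-fold were used, with 2-fold as a second threshold.

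Depth was read from genes with an FPKM under 0.1 and a single GENCODE M1 transcript longer than 1000 nucleotides, less 200 nucleotides, at the commonest value of 1 read. Estimated reads, counting SEs and GC content use the longest M1 coding transcript of a gene. That of Egr3 is short (1416 nucleotides), so its counting SE may be too large and its GC content may differ from that of the full transcript. The depth and fold calculations were tested on simulated data. The genes named are the 10 members, Srf, the listed genes past 2-fold (otherwise 2 per list with the largest ratio of shSrf to control cells at 12 kPa) and the 5 nearest to Egr1. Elk1, Elk3, Elk4, the AP-1 subunits other than Fos, Vim, Map2, Snap25, Nefl, Aldh1l1 and the markers at 0 were named after their values were seen. Other minimums, a pseudocount, 2 scalings, a 1.5-fold threshold and, added later, centring by GC content were tried. The members and lists were chosen with earlier results of these data known. Positions and promoter sequences are from RefSeq (GRCm38.p6), matched by symbol. Python 3.11.15, numpy 2.4.6, pandas 2.3.3 and matplotlib 3.10.9 were used.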

Additional observations from a re-analysis of the deposited data

Results flagged for a closer look

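Of 42 named genes, 5 were lower on the stiff matrix by more than 1.1-fold in control cells and higher by more than 1.1-fold in shSrf cells. The share of all genes that did so was not counted, and the 42 include genes named for being past 2-fold in these same libraries. None of these differences was tested, as each condition had 1 library. The difference between the log2 ratios, shSrf minus control, was 1.17 for Egr2 (below the minimum), from -0.33 to 0.84. It was 1.17 for Socs3, from -0.55 to 0.62, and 1.24 for the Srf target Tagln, from -0.30 to 0.94. For Zfp36l1 it was 0.35, from -0.17 to 0.19, and for Atf5 0.45, from -0.28 to 0.17. Relative to genes of similar GC content the ratio of Atf5 in shSrf cells was 0.08, within 1.1-fold, and the ratios of the other genes stayed past it.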

How the results depend on the processing

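No paired analysis was possible because there was 1 library in every condition. The minimum and the fold threshold both changed the counts. With a minimum FPKM of 5, only Egr1, Ier2, Ier3, Ier5 and Dusp1 remained. Of these, 3 were lower on the stiff matrix in control (median log2 ratio -0.63) and 3 in shSrf cells. In shSrf against control cells 1 was lower at 0.5 kPa (median 0.77) and 0 at 12 kPa (median 0.78). The median difference between the stiffness ratios was 0.48 in place of 0.27. Shares of all genes were not computed at this minimum or under the other settings below. With a minimum of 1, which adds Egr2, 1 gene was higher on the stiff matrix in shSrf cells, and the medians of shSrf to control cells were 0.02 and 0.24. Using a pseudocount of 1 and no minimum, that number was 1 and these medians were 0.04 and 0.22, and the median on the stiff matrix in control cells was -0.30, or -0.34 with the pseudocount alone. With a threshold of 1.5-fold, 4 of the 9 genes were lower on the stiff matrix in control and 0 in shSrf cells. At this threshold 1 gene was lower in shSrf than control cells at 0.5 kPa and 1 at 12 kPa. Centring within 10 bins of GC content, added after the data were examined, moved the median of shSrf to control cells at 12 kPa to 0.29. Scaling each library to its 75th percentile, or centring each ratio on its median, moved none of these counts, medians or single-gene values by more than 1.96 counting SEs. Of 295 single-gene values under the alternatives, 279 moved by less than that and 16 by more. The other minimums cannot change a single-gene ratio, so their values were among the 279 in advance. GC centring moved 12 of 45 values by more, and the pseudocount moved 2 of 45 with the minimum and the same 2 without it. No ratio past 1.1-fold changed sign, while 7 values within 1.1-fold did, among them Ier3 in shSrf against control cells at 12 kPa, from 0.08 to -0.09 with GC centring. Depth limits Atf3 most.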
